A study of Sus scrofa with 8 samples.

Results

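Müller glia are the radial glia of the retina, and 7 genes of their homeostatic work were followed here in single-nucleus RNA-seq of pig retina after intravitreal AAV. The genes were RLBP1, RGR, DKK3, AQP4, KCNJ10, SLC1A3 and SOX9, taken by name from 35683 genes in the count matrices. All 7 were found, and all 7 passed the filter on low counts in Müller-gated nuclei at week 4. In those nuclei, 4 of the 7 were lower and 1 was higher in AAV retinas than in vehicle retinas, while 12% of all genes tested were lower and 11.6% higher, so 1 of 7 higher is near the background. Because the 7 genes were chosen with earlier results of these data known, such shares describe them and do not test the set. RGR fell most, by 3.18 on the log2 scale, and KCNJ10, RLBP1 and DKK3 fell as well, whereas SOX9 rose by 1.44 and the differences of AQP4 and SLC1A3 did not pass the test.

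The animals were female Yucatan minipigs aged 3 to 5 months, and 8 retinas of 6 animals were sequenced as nuclei sorted on DAPI. AAV animals received AAV2.7m8/CAG-GFP at 5e11 vg per eye in both eyes, in which the ubiquitous CAG promoter drives GFP in any transduced cell type, and vehicle animals received vehicle in both eyes. All animals, vehicle included, had been given Vitrase, a hyaluronidase, into the vitreous before dosing and methylprednisolone, a corticosteroid, every week. At week 2 (day 15) both eyes of AAV animal 7221 and both eyes of vehicle animal 7222 were taken, so that each arm was 1 animal. At week 4 (day 24 to 28) the left eyes of AAV animals 7248 and 7249 and of vehicle animals 7250 and 7251 were taken. Each group had a batch of its own in the labels, so batch and group cannot be told apart.

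Müller glia span the retina from the vitreous to the photoreceptors and hold the surroundings of its neurons steady. They take up glutamate released at synapses through the transporter GLAST, encoded by SLC1A3, and carry potassium and water to the vitreous and vessels through the channel Kir4.1, encoded by KCNJ10, and the water channel aquaporin 4, encoded by AQP4. They also handle the retinoids of the visual cycle: RLBP1 encodes CRALBP, which binds 11-cis retinoids, and RGR encodes an opsin that takes part in making the 11-cis form. DKK3 encodes a secreted glycoprotein of the Dickkopf family, and SOX9 encodes a transcription factor that mature Müller glia keep from their progenitors. Both retinoid genes are also known in the retinal pigment epithelium (RPE), and SLC1A3, KCNJ10, AQP4 and SOX9 are known in astrocytes as well.

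In RefSeq's annotation of Sscrofa11.1, RLBP1 lies at chr7:54783965-54800008 on the minus strand and RGR at chr14:85485210-85496393 on the plus strand. DKK3 lies at chr2:47385244-47444664 (plus), KCNJ10 at chr4:90421956-90457406 (plus), AQP4 at chr6:111407632-111422169 (minus), SLC1A3 at chr16:21873691-21965315 (plus) and SOX9 at chr12:8642154-8647315 (minus). The 7 genes thus lie on 7 chromosomes. Of the 7 genes, RLBP1, RGR and KCNJ10 were lower in both AAV retinas at both weeks, with 1 animal per arm and no test at week 2. Of these, the 250 bases before the annotated starts of the 2 visual cycle genes, RLBP1 (chr7:54800009-54800258) and RGR (chr14:85484960-85485209), are shown. They are written 5′ to 3′ on the gene's strand, and capitals mark the match to a motif:
RLBP1: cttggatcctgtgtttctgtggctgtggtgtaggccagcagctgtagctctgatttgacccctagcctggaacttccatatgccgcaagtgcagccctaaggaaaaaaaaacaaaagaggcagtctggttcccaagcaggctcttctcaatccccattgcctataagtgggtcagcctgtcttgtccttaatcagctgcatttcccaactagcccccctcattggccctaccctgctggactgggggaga
RGR: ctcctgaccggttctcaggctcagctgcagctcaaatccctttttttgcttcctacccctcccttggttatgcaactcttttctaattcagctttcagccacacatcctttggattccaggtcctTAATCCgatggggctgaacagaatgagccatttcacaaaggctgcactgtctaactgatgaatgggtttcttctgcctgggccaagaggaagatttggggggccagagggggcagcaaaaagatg
Searched on both strands, RGR held the GGATTA core that OTX and CRX factors bind, as TAATCC on the strand printed. This motif was in 5.4% of 19556 promoters of the same length, the SOX core AACAAT in 7.07% and the TAATTA core of RAX and LHX2 in 3.73%. Neither the RLBP1 window nor those of the other 5 genes held any of the 3 motifs, which says only that these letters are not in these windows.

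Nuclei were called Müller-gated from a panel of 12 markers, and each of the 7 genes was measured in a gate built without it, so that a gene's own level did not decide which nuclei were counted. The other members stayed in that gate, and a nucleus that had lost several of them could leave it. With the full panel, 32854 of 350569 nuclei (9.37%) were gated. They were 10.8% to 12.9% of nuclei in the 4 retinas of week 2 and the vehicle retinas of week 4, and 3.78% and 1.49% in the AAV retinas of week 4 (1831 and 696 nuclei). Total counts per retina were 111714335 to 164090895 UMIs in kept nuclei. The gated nuclei of the AAV retinas at week 4 were the deepest, with medians of 5221 and 5408 UMIs against 2213 and 2006.5 in the vehicle retinas of that week. Summed levels of rod, astrocyte, microglia and RPE markers in these nuclei moved with the group at week 4. The summed level of a 6-gene rod panel in Müller-gated nuclei was 160 to 164 CPM (the counts-per-million scale, UMIs of a gene scaled to the sum of all UMIs in the gated nuclei) in AAV and 391 to 430 CPM in vehicle retinas at week 4, with 6 of 6 genes lower. A 4-gene astrocyte panel summed to 266 to 372 CPM against 50.4 to 130 CPM, of which only GFAP was higher in both AAV retinas, 2 genes were lower and NTSR2 was at 0 in all 4. A 6-gene microglia panel summed to 34.2 to 39.4 CPM against 26.0 to 31.4 CPM. A 6-gene panel of the RPE, which also makes RLBP1 and RGR, summed to 262 to 297 CPM in AAV and 220 to 257 CPM in vehicle retinas. In both AAV retinas 2 of its genes were higher and 2 lower. RPE65 made up most of this sum, at 235 and 267 CPM in AAV and 189 and 203 CPM in vehicle retinas. TYRP1, TYR and TTR were each at most 1.68 CPM at week 4. In nuclei without a UMI of the RPE panel the log2 fold changes at week 4 were −3.28 for RGR and −1.46 for RLBP1, as large as those given below. In nuclei without a GFAP UMI, an alternative chosen after seeing the data, and with free RNA subtracted, 4 of the 7 genes were lower and 1 higher, the same 7 calls as in all gated nuclei. The part of the microglia levels was not tested. Lanes of different retinas shared 18 to 62 barcodes, like the 23 to 65 shared by lanes of 1 retina.

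RGR showed the largest change of the 7 genes at week 4. Its level in Müller-gated nuclei was 49.8 and 59.4 CPM in AAV animals 7248 and 7249 and 470 and 505 CPM in vehicle animals 7250 and 7251. The AAV retinas were far below the vehicle retinas, with no overlap, and the vehicle retinas of both weeks lay close together (493 and 469 CPM at week 2). In edgeR's quasi-likelihood test over all genes of the gate, RGR was 9.03-fold lower in AAV (log2 fold change −3.18 ± 0.14 SE, adjusted p = 1.64e-05, n = 2 animals per arm). The call held in all 22 settings tried, over which the log2 fold change lay between −3.29 and −2.57.

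RLBP1 was lower as well, but by less. AAV animals 7248 and 7249 had 351 and 389 CPM, and vehicle animals 7250 and 7251 had 962 and 893 CPM. The groups did not overlap, and the 2.53-fold difference passed the test (log2 fold change −1.34 ± 0.12, adjusted p = 0.000354, edgeR). The call rested on both AAV retinas: without animal 7248 the log2 fold change was −1.23 with an adjusted p of 0.153, and without animal 7249 it was −1.42 with an adjusted p of 0.132.

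DKK3, the secreted member, had 433 and 373 CPM in the AAV animals and 903 and 861 CPM in the vehicle animals at week 4. The gap between the arms was wide next to the spread within each, and DKK3 was 2.20-fold lower in AAV (log2 fold change −1.14 ± 0.12, adjusted p = 0.000719, edgeR). The call held in all 22 settings, with log2 fold changes of −1.23 to −0.87.

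KCNJ10, the potassium channel, had 17.2 and 11.3 CPM in the AAV animals and 52.9 and 55.5 CPM in the vehicle animals at week 4. The groups did not overlap, and the difference was 3.63-fold (log2 fold change −1.86 ± 0.19, adjusted p = 0.00112, edgeR). A gate of the 5 markers that are none of the 7 genes left 37 and 36 nuclei in the AAV retinas, with only 7 and 3 KCNJ10 UMIs. In that gate the log2 fold change was −1.47 and the adjusted p 0.0984.

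The other channel and the glutamate transporter did not share this fall. AQP4 had 53.1 and 43.6 CPM in the AAV animals and 44.7 and 37.6 CPM in the vehicle animals at week 4. The groups overlapped (log2 fold change 0.24 ± 0.15, adjusted p = 0.302, edgeR), and in the gate without any of the 7 genes the sign turned (−0.19, adjusted p = 0.853). That value rests on only 6 and 9 AQP4 UMIs in 37 and 36 nuclei of the AAV retinas, too few to place. SLC1A3 had 1358 and 1283 CPM in the AAV animals and 1012 and 1103 CPM in the vehicle animals. Both AAV values lay above both vehicle values, by 1.25-fold, but the difference did not pass the test (log2 fold change 0.32 ± 0.12, adjusted p = 0.0795).

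SOX9, the transcription factor, moved the other way. It had 18.3 and 15.5 CPM in the AAV animals and 5.82 and 6.71 CPM in the vehicle animals at week 4, from 179, 59, 69 and 80 UMIs. The AAV retinas were higher without overlap, by 2.72-fold (log2 fold change 1.44 ± 0.20, adjusted p = 0.00309, edgeR). Like that of RLBP1, the call was lost without animal 7248 (1.32, adjusted p = 0.156) or animal 7249 (1.55, adjusted p = 0.130), and the gene had too few counts to be tested in the gate without the 7 genes.

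At week 4 the median log2 fold change was −1.14 over the 7 genes and −0.01 over 18000 genes tested. The smallest p that an exact permutation of 2 against 2 retinas allows is 0.333, so single values could not be tested that way.

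**Figure D1:**
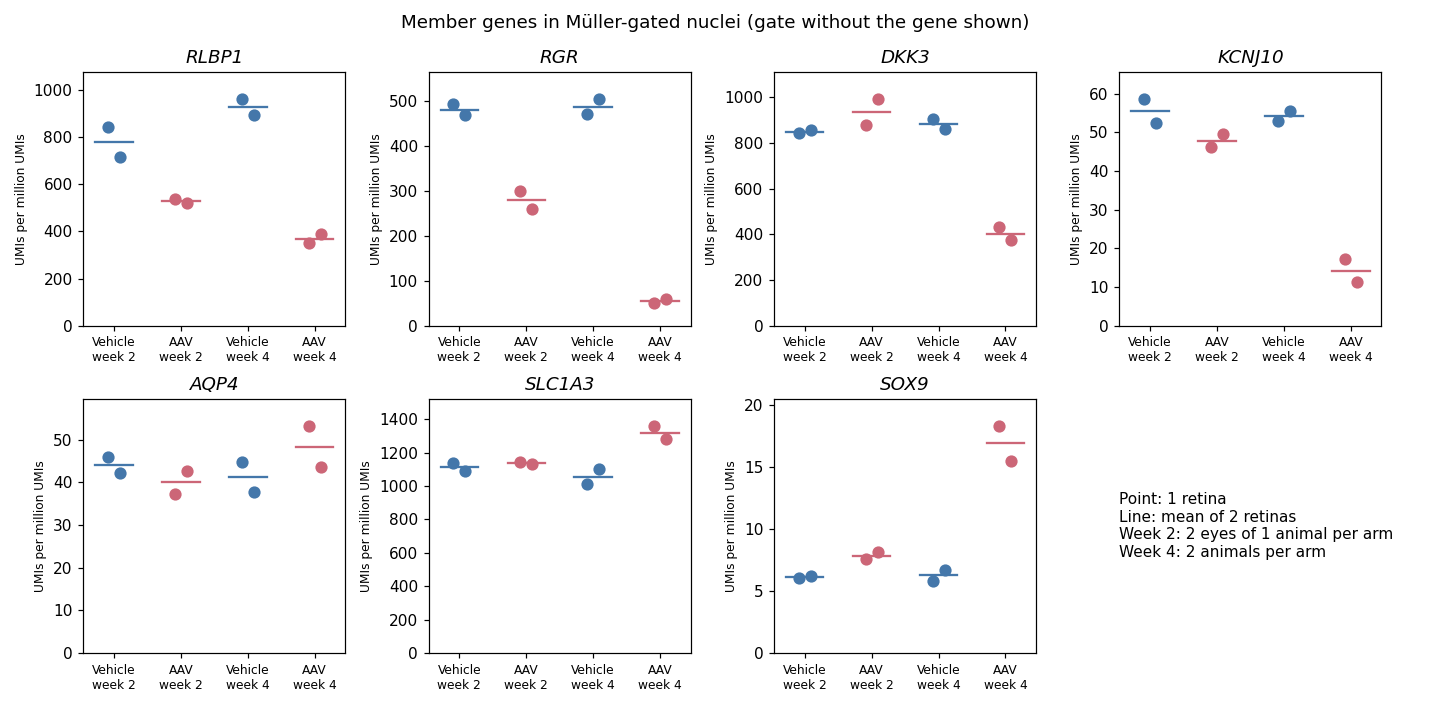
Level of each of the 7 genes in Müller-gated nuclei (y axis, level in CPM; x axis, group), with 1 point per retina and a line at the mean of the 2 retinas of a group. At week 4 both AAV retinas lie below both vehicle retinas for RLBP1, RGR, DKK3 and KCNJ10, and above them for SLC1A3 and SOX9.

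A level in CPM compares a gene with the rest of the nucleus's RNA, and the AAV nuclei of week 4 held more UMIs, so the counts per nucleus were examined as well. RGR stayed far lower on this scale, with 0.268 and 0.326 UMIs per nucleus in the AAV animals and 1.19 in each vehicle animal at week 4. KCNJ10 was lower too, at 0.0925 and 0.0619 UMIs per nucleus against 0.133 and 0.129. For DKK3 the groups overlapped, at 2.38 and 2.09 UMIs per nucleus in AAV and 2.31 and 2.04 in vehicle animals, and for RLBP1 they overlapped at 1.93 and 2.17 against 2.48 and 2.14. For these 2 genes the groups were thus apart as a share of the nucleus's UMIs and overlapped in UMIs per nucleus when depth was not matched. SLC1A3 and SOX9 were far higher per nucleus in the AAV animals. SLC1A3 had 7.30 and 7.13 UMIs per nucleus against 2.58 and 2.61, and SOX9 had 0.0981 and 0.0850 against 0.0146 and 0.0156. AQP4 had 0.285 and 0.239 UMIs per nucleus in AAV and 0.112 and 0.0876 in vehicle animals. For these 3 genes both AAV values were above both vehicle values on this scale, which was not matched for depth while the AAV nuclei were deeper.

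**Figure D2:**
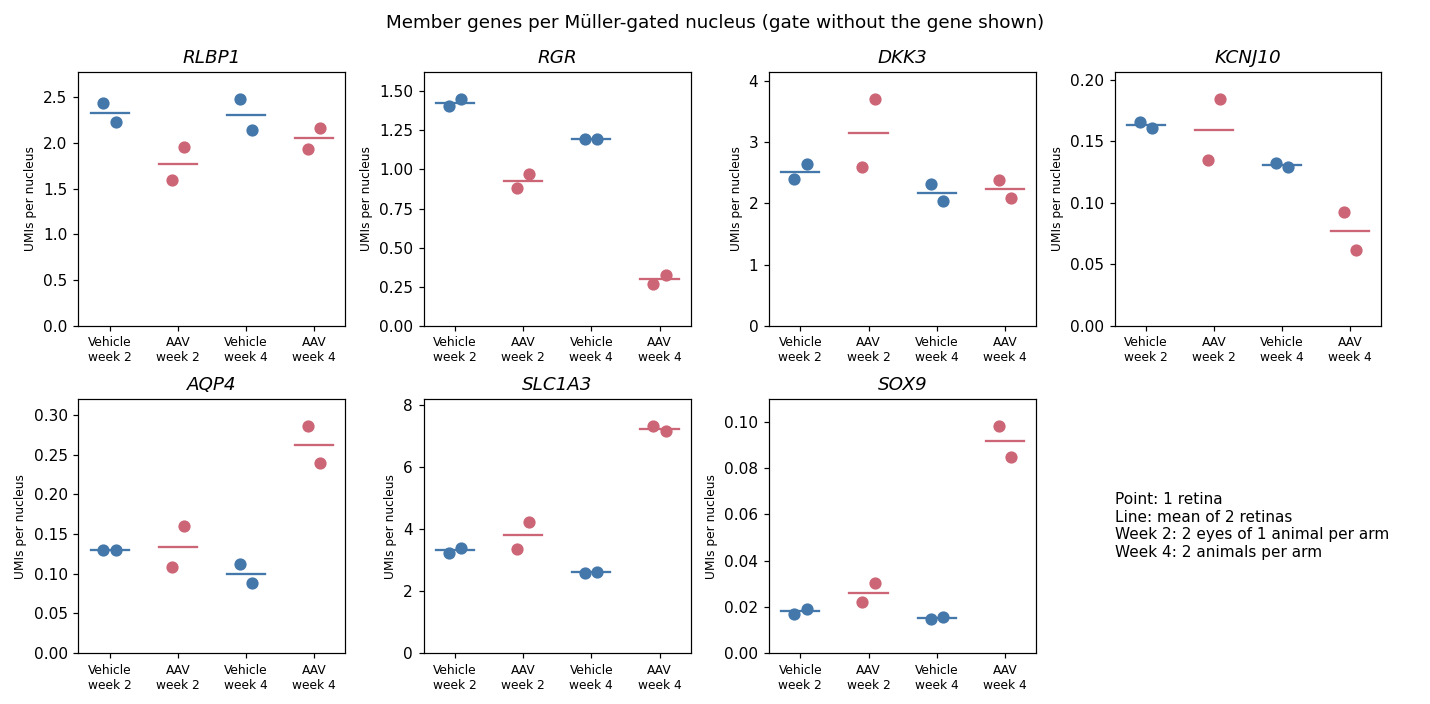
Counts of the 7 genes per Müller-gated nucleus (y axis, UMIs per nucleus, not scaled for depth; x axis, group), with 1 point per retina and a line at the mean of the 2 retinas of a group. At week 4 RGR and KCNJ10 are lower in both AAV retinas, RLBP1 and DKK3 overlap without matching for depth, and AQP4, SLC1A3 and SOX9 are higher.

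Nuclei were also matched for depth. Within nuclei of 2000 to 8000 UMIs at week 4, an alternative chosen after seeing the data, RGR had 51.6 and 59.4 CPM in the AAV animals and 468 and 494 CPM in the vehicle animals. DKK3 had 443 and 389 CPM against 893 and 839 CPM there, and SOX9 17.5 and 15.1 CPM against 5.74 and 5.83 CPM. In UMIs per nucleus within the window, RLBP1 had 1.84 and 2.08 in the AAV animals against 3.01 and 2.79 in the vehicle animals, and DKK3 2.26 and 2.03 against 2.82 and 2.64, both without overlap. The levels in CPM were close to those without the window, although the AAV nuclei inside it were still deeper, with medians of 4976 and 5268 UMIs against 2836 and 2797.5 in the RGR gate.

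The share of gated nuclei with at least 1 RGR UMI was 18.1% and 20.5% in the AAV animals and 59.9% and 59.8% in the vehicle animals at week 4. The exact 95% binomial intervals, which cover counting error only, were 16.3% to 19.9% and 17.5% to 23.7% in AAV and 58.5% to 61.4% and 58.4% to 61.2% in vehicle animals. Thinned to 1000 UMIs per nucleus, which left out 2 and 1 shallower AAV nuclei and 170 and 269 vehicle nuclei, these shares were 4.81% and 5.62% against 36.0% and 38.0%. In rod-gated nuclei, which should lack RGR, the thinned shares were 0.0977% and 0.0683% in AAV and 3.31% and 3.50% in vehicle retinas (unthinned 0.237%, 0.169%, 5.35% and 5.66%). RGR in Müller-gated nuclei was thus above the level in rods of the same retina in all 4. For RLBP1 the unthinned shares were 73.3% and 75.2% in AAV and 82.8% and 78.3% in vehicle animals, and the thinned ones 28.6% and 30.3% against 59.1% and 56.6%.

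At week 2 the arms were 1 animal each, so values are given with no test. RLBP1 had 538 and 522 CPM in the left and right eye of AAV animal 7221 and 845 and 717 CPM in vehicle animal 7222. RGR had 301 and 260 CPM against 493 and 469 CPM. For both visual cycle genes the 2 AAV eyes lay below the 2 vehicle eyes, by 1.56-fold for RLBP1 and 1.82-fold for RGR with eyes summed and libraries scaled by TMM. The 2 genes also had fewer UMIs per nucleus there, at 1.59 and 1.96 against 2.43 and 2.22 for RLBP1 and 0.881 and 0.972 against 1.41 and 1.45 for RGR. The remaining genes were closer together. KCNJ10 had 46.3 and 49.4 CPM in AAV and 58.6 and 52.3 CPM in vehicle eyes, and AQP4 had 37.2 and 42.7 CPM against 45.8 and 42.2 CPM. DKK3 was not lower at week 2, with 878 and 991 CPM in AAV and 841 and 858 CPM in vehicle eyes. SLC1A3 lay between 1090 and 1146 CPM in all 4 eyes, and SOX9 had 7.55 and 8.13 CPM against 6.04 and 6.18 CPM. None of the 7 genes was at least 2-fold lower at week 2, while 5.04% of all genes were.

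Whether the AAV difference changed between the weeks was tested in a fit over the 6 animals, with eyes of 1 animal summed. With 1 animal per arm at week 2, the spread came from week 4 alone, and the fit assumes that animals of week 2 vary like those of week 4. A difference between the 2 pigs of week 2 that is not due to AAV cannot be told apart from the treatment in it. Under that assumption, the difference was more negative at week 4 for RGR (log2 difference −2.32 ± 0.22, adjusted p = 0.00706, edgeR). It was also more negative for KCNJ10 (−1.62 ± 0.30, adjusted p = 0.0380) and DKK3 (−1.25 ± 0.20, adjusted p = 0.0242). Thus 3 of 7 genes passed in this fit, against 2.15% of all genes. For RLBP1, already lower at week 2, the difference between the weeks did not pass (−0.71 ± 0.20, adjusted p = 0.0950), nor did it for SOX9 (1.11 ± 0.32, adjusted p = 0.104), SLC1A3 (0.38, adjusted p = 0.313) or AQP4 (0.41, adjusted p = 0.409). Without either AAV animal of week 4 the count was 1, with KCNJ10 at adjusted p values of 0.291 and 0.271 and DKK3 at 0.178 and 0.165. The 2 weeks share no animals.

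**Figure D3:**
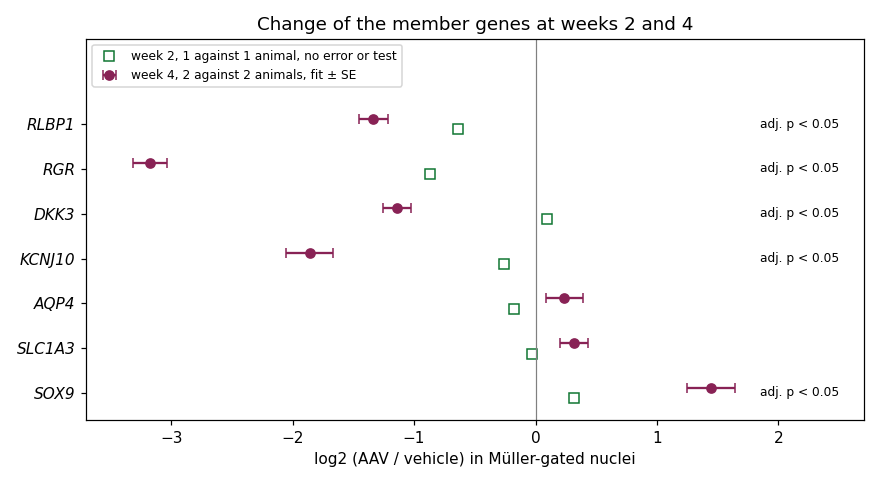
Log2 ratio of AAV to vehicle for the 7 genes in Müller-gated nuclei (x axis), with filled circles for the fit at week 4 (bars ± SE, 2 animals per arm) and open squares for week 2 (1 animal per arm, no error or test). RGR lies at −0.87 at week 2 and −3.18 at week 4, RLBP1 at −0.64 and −1.34, and DKK3 at 0.10 and −1.14, while SOX9 lies to the right of 0 at both weeks.

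Within the AAV retinas, Müller-gated nuclei with and without a UMI of the EGFP transgene were set side by side, as values with no test since both come from the same retinas. At week 4, RLBP1 had 328 and 345 CPM in nuclei with EGFP and 353 and 392 CPM in nuclei without it. DKK3 had 377 and 301 CPM with EGFP and 437 and 379 CPM without. For RGR these levels were 23.2 and 55.0 CPM with EGFP, from only 17 and 14 UMIs in 124 and 43 nuclei, and 51.9 and 59.7 CPM without. Levels of the 3 genes in nuclei without EGFP were thus also below those of the vehicle retinas. KCNJ10 had 2 and 6 UMIs in EGFP-bearing nuclei, too few to place. A nucleus without an EGFP UMI is not shown to be free of vector at this depth. At week 2, RGR had 268 and 251 CPM in nuclei with EGFP and 304 and 261 CPM in nuclei without it, a smaller gap than that to the vehicle eyes.

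RNA that leaves broken cells enters droplets with other nuclei, so the 7 genes were also read in rod-gated nuclei (6807 to 24302 per retina, gated without any of the 7). In bulk sums and in such free RNA, fewer Müller nuclei and less RNA per Müller nucleus cannot be told apart. At week 4, RGR in rod-gated nuclei was 1.15 and 0.698 CPM in AAV and 35.4 and 38.6 CPM in vehicle animals. This 38.4-fold difference (log2 fold change −5.26 ± 0.24, adjusted p = 0.000335, edgeR) was larger than the one inside Müller-gated nuclei. RLBP1 was 12.7 and 10.4 CPM against 45.5 and 50.3 CPM (−1.98 ± 0.14, adjusted p = 0.00149), and DKK3 was 8.79 and 6.51 CPM against 45.6 and 49.9 CPM (−2.57 ± 0.17, adjusted p = 0.00104). The channels and the transporter were lower here too, with log2 fold changes of −3.56 ± 0.53 for KCNJ10 (adjusted p = 0.0131), −2.14 ± 0.48 for AQP4 (adjusted p = 0.0361) and −1.99 ± 0.45 for SLC1A3 (adjusted p = 0.0378). SOX9 was at 0.892 and 1.43 CPM in AAV and 0.539 and 0.436 CPM in vehicle animals (1.31 ± 0.44, adjusted p = 0.104). Lower calls thus numbered 6 of 7, against 6.46% of all genes in rod-gated nuclei, and without vehicle animal 7251 they numbered 3.

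Set against the level in Müller-gated nuclei of the same retina, the rod level of RGR was 2.30% and 1.17% in the AAV animals and 7.52% and 7.65% in the vehicle animals at week 4. That of SLC1A3, which was not lower inside Müller-gated nuclei, was 1.04% and 0.38% against 3.19% and 4.21%. The relative rod level was lower in both AAV animals for RLBP1, RGR, DKK3, KCNJ10, AQP4 and SLC1A3, while for SOX9 the animals overlapped (4.88% and 9.21% against 9.26% and 6.51%).

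Over all nuclei of a retina, RGR was 5.74 and 2.78 CPM in the AAV animals of week 4 and 74.7 and 86.3 CPM in the vehicle animals (−4.24 ± 0.34, adjusted p = 0.00151, edgeR). RLBP1 was 38.1 and 20.3 CPM against 140 and 147 CPM (−2.30 ± 0.28, adjusted p = 0.00683). KCNJ10 (−2.92 ± 0.47, adjusted p = 0.0174) and DKK3 (−1.72 ± 0.24, adjusted p = 0.0108) passed as well, 4 of 7 against 4.44% of all genes. AQP4 (−0.94, adjusted p = 0.249) and SLC1A3 (−0.57, adjusted p = 0.373) did not, and the size of their change turned on animal 7248. Without it their log2 fold changes were −1.94 and −1.34, in a fit with a single AAV animal and so no spread among AAV animals. The share of Müller-gated nuclei was lower in both AAV retinas, and its part in these sums was not tested.

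Astrocyte-gated nuclei were few, 68 to 213 per retina, and 38 of 1235 were also Müller-gated. Their comparison was not among those planned beforehand. KCNJ10 there was 10.9 and 12.6 CPM in the AAV animals and 124 and 96.1 CPM in the vehicle animals at week 4 (−3.15 ± 0.28, adjusted p = 0.000246, edgeR). At week 2 it was 116 and 131 CPM in AAV and 108 and 95.6 CPM in vehicle eyes, so the low values were those of week 4. RLBP1 was 34.9 and 33.9 CPM against 332 and 234 CPM (−2.96 ± 0.23, adjusted p = 0.000142). RGR (−2.40 ± 0.36, adjusted p = 0.00320) and DKK3 (−1.23 ± 0.22, adjusted p = 0.00790) were lower too, which made 4 of 7 against 6.95% of all genes. SLC1A3 did not pass (0.62, adjusted p = 0.0521), nor did AQP4 (0.62, adjusted p = 0.690) or SOX9 (0.71, adjusted p = 0.10). The astrocyte panel reads GFAP, which was higher in Müller-gated nuclei of both AAV animals. Whether the gate therefore took in different nuclei by arm was not tested. In rod-gated nuclei at week 4, RLBP1 was 10.4 to 12.7 CPM in AAV and 45.5 to 50.3 CPM in vehicle animals, below the astrocyte-gated levels. How much of RLBP1 and RGR in astrocyte-gated nuclei was free RNA or came from Müller nuclei was not tested. Without vehicle animal 7250 the adjusted p of DKK3 was 0.0542.

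RPE-gated nuclei, from 5 to 208 per retina, held both visual cycle genes. RLBP1 was 1350 and 1308 CPM in the AAV animals at week 4 and 1352 and 1484 CPM in the vehicle animals. RGR was 625 and 836 CPM in 28 and 5 AAV nuclei and 1120 and 1122 CPM in the vehicle animals. These levels were not tested, and the AAV values rest on few nuclei. DKK3 had a level of its own in amacrine-gated nuclei, of 89.8 and 110 CPM in AAV and 109 and 118 CPM in vehicle animals at week 4. SLC1A3 was 345 and 298 CPM in microglia-gated nuclei of the AAV animals and 322 and 609 CPM in those of the vehicle animals. The groups overlapped for DKK3 in amacrine-gated and for SLC1A3 in microglia-gated nuclei, where the vehicle values rest on few UMIs.

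**Figure D4:**
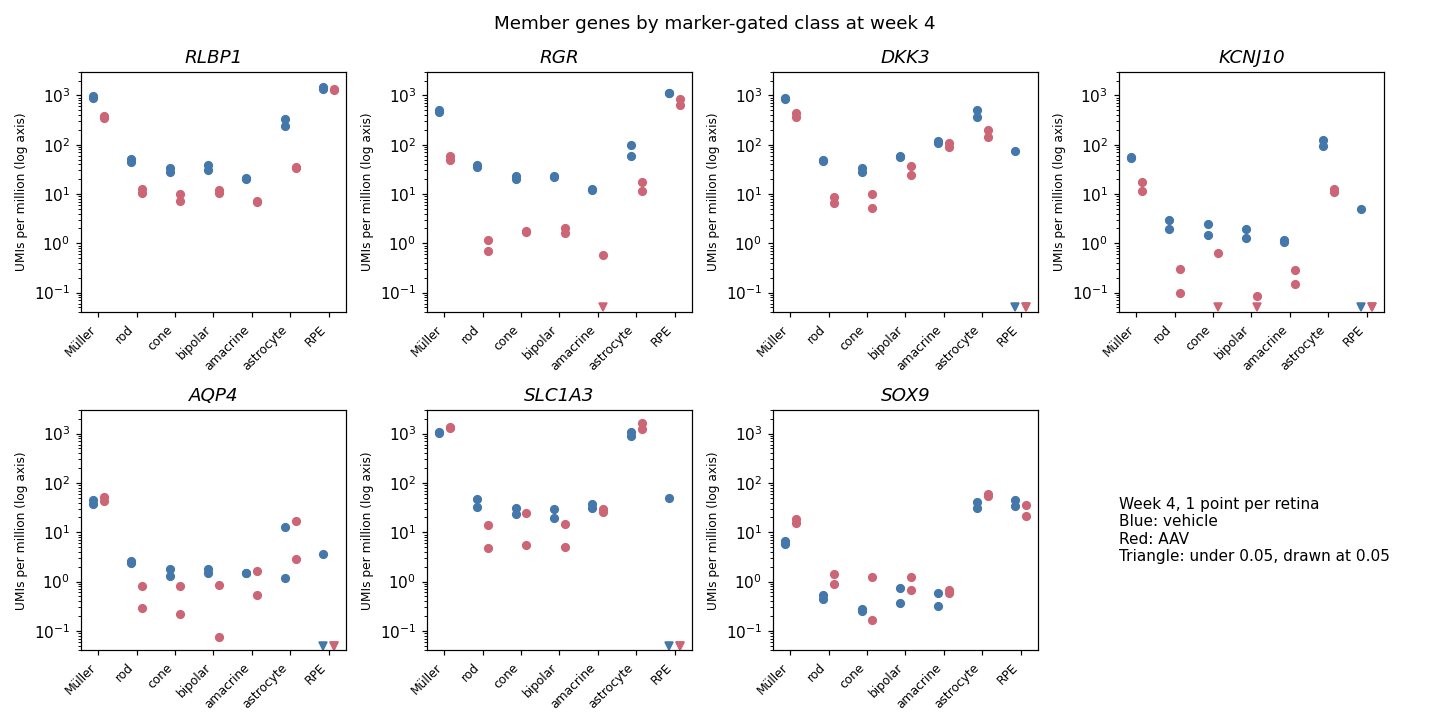
Level of the 7 genes at week 4 by marker-gated class (x axis; y axis, level in CPM on a log axis), with 1 point per retina, blue for vehicle and red for AAV, and triangles for values under 0.05 drawn at 0.05. In rod-gated nuclei RGR is 1.15 and 0.698 CPM in AAV and 35.4 and 38.6 CPM in vehicle retinas, and RLBP1 is between 1308 and 1484 CPM in RPE-gated nuclei of both arms.

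Beyond the 7 genes, 53 other genes of Müller homeostasis were listed by role, also with earlier results of these data known. In the files, 50 of them were found by symbol, and 47 passed the filter in Müller-gated nuclei at week 4. Of these 47, 17 were lower, 6 higher and 24 neither in AAV (edgeR, adjusted p under 0.05), with a median log2 fold change of −0.36. Over all genes tested in these nuclei 12% were lower and 11.6% higher, so the 6 higher genes were a share near that background and the count of higher genes is no result about the list. In the gate without the 7 genes 5 were lower and 0 higher, and with free RNA subtracted 11 were lower and 12 higher, so the balance of lower to higher turned on that step. Without either AAV animal only 1 was lower and none was higher, so the counts need both animals.

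Genes that clear transmitter and ions were among the lower ones. SLC38A3, which exports glutamine, had 26.0 and 33.1 CPM in the AAV animals and 84.7 and 103 CPM in the vehicle animals (log2 fold change −1.69 ± 0.18, adjusted p = 0.00107). By role, 2 of 3 genes of glutamate and ammonia and 3 of 5 of water and potassium were lower and none was higher. Over all genes tested, 12% were lower and 11.6% higher. The roles hold few genes, chosen with earlier results known, so these counts describe them and test no role. The limits given above for the whole list hold for each role too. KCNJ2, a further potassium channel, had only 1.0 and 0.8 CPM against 2.5 and 2.8 CPM (−1.48 ± 0.40, adjusted p = 0.0375), and the call was lost in 13 of 19 alternatives.

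The other roles were mixed, and their counts are to be set beside 12% of all genes lower and 11.6% higher. CA14, a membrane carbonic anhydrase, had 7.6 and 10.2 CPM in the AAV animals and 20.6 and 18.3 CPM in the vehicle animals (−1.17 ± 0.21, adjusted p = 0.00809). Its level was also low in the AAV eyes of week 2, at 6.0 and 10.8 CPM against 22.0 and 20.8 CPM. Of the dystrophin complex, which anchors AQP4 and KCNJ10 in the membrane, 3 of 6 genes were lower and none was higher. FRZB, a secreted WNT antagonist, was lower (−1.04 ± 0.15, adjusted p = 0.00322), with 3 of 5 WNT modulators. Among retinoid genes, none of the 6 tested passed in either direction, unlike RLBP1 and RGR.

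Transcription factors split, with 3 of 11 lower and 3 higher, beside 12% of all genes lower and 11.6% higher. SOX8, a relative of SOX9, fell (−1.32 ± 0.18, adjusted p = 0.00293), and HES1, an effector of Notch signalling, rose (1.57 ± 0.23, adjusted p = 0.00403). The 3 genes of intermediate filaments and stress tested were each higher. GFAP, the filament that reactive glia make, had 397 and 275 CPM in the AAV animals and 53.9 and 137 CPM in the vehicle animals, in nuclei gated without reading GFAP (1.81 ± 0.39, adjusted p = 0.0163). The small heat shock protein gene CRYAB (1.14 ± 0.20, adjusted p = 0.00820) and the filament gene VIM (0.73 ± 0.14, adjusted p = 0.0119) were higher by less. The call was lost in 5 of 21 alternatives for GFAP, 5 of 21 for CRYAB and 6 of 22 for VIM, with no change of sign.

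**Figure D5:**
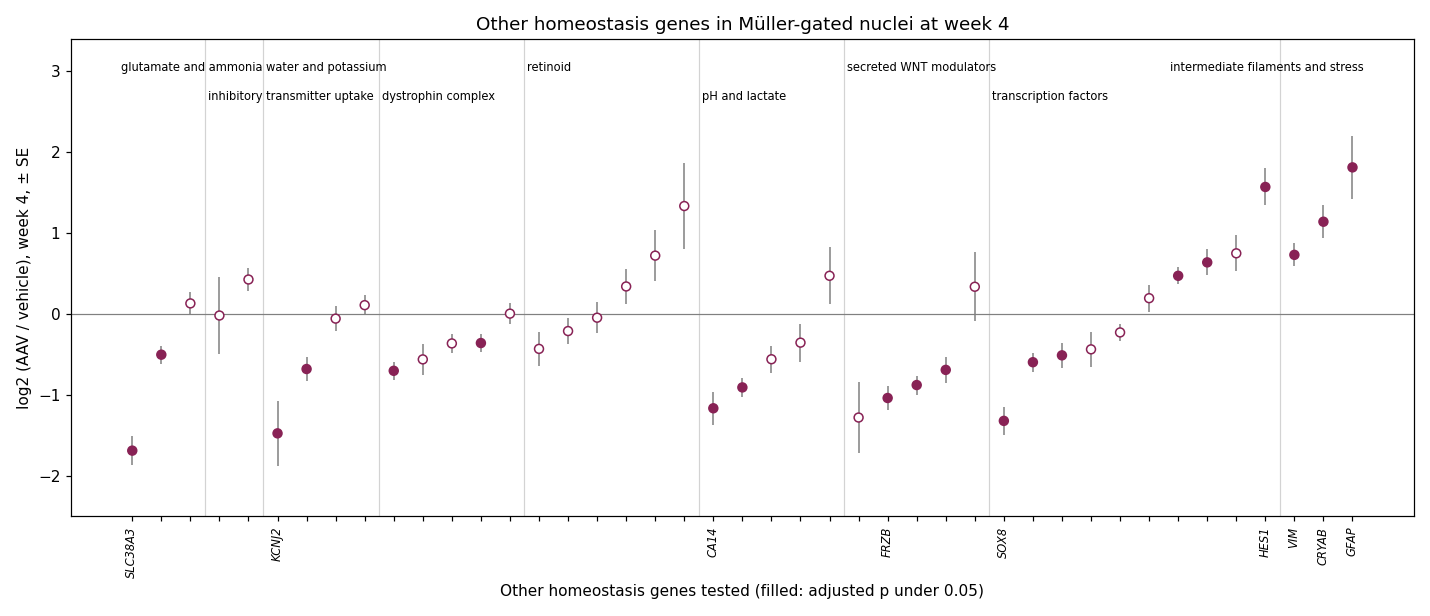
Log2 ratio of AAV to vehicle at week 4 in Müller-gated nuclei for 43 of the 47 other homeostasis genes tested (y axis, fit ± SE, 2 animals per arm; x axis, genes by role, with the names of those described), filled where the adjusted p is under 0.05. Among the filled points SLC38A3 lies lowest at −1.69 and GFAP highest at 1.81, and no retinoid gene is filled.

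Of 3267 genes with a mean of at least 50 CPM in Müller-gated nuclei, 5 were named as most like the mean log2 CPM of the 7 genes over the 8 retinas. These were ZNF804B (Pearson r = 0.993), DLG2 (0.988), MACROD2 (0.987), KMT5B (0.986) and MTUS2 (0.984). ZNF804B, a zinc finger gene, had 98.8 and 72.2 CPM in the AAV animals of week 4 and 335 to 389 CPM in the vehicle animals, and 281 to 374 CPM at week 2. These correlations describe 8 retinas whose batch, depth and number of gated nuclei go with the group, and they carry no test.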

How the data were processed

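Nuclei of 8 retinas were sequenced with 10x GEM-X 3′ v4 chemistry in 4 lanes each. The authors counted UMIs with Cell Ranger 8.0.0 on Sscrofa11.1 with EGFP added, and the deposited matrices hold raw counts. Nuclei were kept by a mixture model of mitochondrial share and genes (posterior 0.75), which removed 6.94% to 12.9% of barcodes, and no doublet caller was run. Gates required at least 4 panel UMIs, 0.1% of UMIs, 2 panel genes and 1 UMI of a defining marker (RLBP1, RGR, DKK3, WIF1 or FRZB), a panel share above every other class, and fewer than 2 UMIs of PAX2, EDNRB and NTSR2. Counts were summed per retina and tested at week 4 with edgeR 4.0.16 (TMM, filterByExpr, quasi-likelihood, Benjamini-Hochberg over all genes tested, threshold 0.05). DESeq2 1.42.0 was an alternative. The week 4 edgeR fit of Müller-gated nuclei, with the full panel, was the fit run on simulated data. Promoters were the 250 bases before RefSeq gene starts. The genes and lists were chosen with earlier results of these data known. Named genes were the 7, at most 8 lower and 4 higher homeostasis genes with the largest fold change among those past the threshold without overlap, and the 5 most correlated genes. GLUL, SLC16A1 and S100B were not matched by symbol, and a few other listed genes are counted but not reported here by name.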

Additional observations from a re-analysis of the deposited data

Results flagged for a closer look

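Between the weeks, 6 genes passed the test of a difference in their AAV effect in Müller-gated nuclei, in a fit that assumes that the single animals of week 2 vary like those of week 4. Each value is the log2 change at week 4 less that at week 2 (edgeR over 6 animals, spread from week 4, 1 animal per arm at week 2). Among the 7 genes of the report these were RGR (−2.32 ± 0.22 SE, adjusted p = 0.00706), KCNJ10 (−1.62 ± 0.30, adjusted p = 0.0380) and DKK3 (−1.25 ± 0.20, adjusted p = 0.0242). Among the other homeostasis genes named they were SOX8 (−1.62 ± 0.27, adjusted p = 0.0329), FRZB (−1.54 ± 0.25, adjusted p = 0.0239) and SLC38A3 (−1.37 ± 0.28, adjusted p = 0.0468). All 6 were more negative at week 4. Neither batch nor a difference between the 2 pigs of week 2 can be told apart from the group here.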

How the results depend on the processing

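Of 117 alternative values of the counts of calls, 98 stayed within 1.5 times the reported count, and of 613 for single genes, 516 kept direction and side of the threshold. Leaving out 1 retina of week 4 at a time, with the lone sample of its arm assumed to vary like the other arm, gave 3 to 4 of the 7 genes lower and 0 to 1 higher in Müller-gated nuclei, 3 to 6 lower in rod-gated, 3 to 4 in astrocyte-gated and 3 to 6 in all nuclei, and 1 to 3 that differed between weeks. For the other homeostasis genes it gave 1 to 15 lower and 0 to 5 higher. In the gate of markers that are none of the 7, 0 of the 7 were higher, against 1, and 5 other homeostasis genes were lower and 0 higher, against 17 and 6. That gate with no defining marker needed (9 lower, 3 higher, 1 differing between weeks) was chosen after seeing the data. So were nuclei without a GFAP UMI (3 higher), a gate without the astrocyte marker rule and nuclei without a TYRP1 or TYR UMI. Nuclei without a UMI of the RPE panel gave 3 higher, and subtracting free RNA gave 11 lower and 12 higher. AQP4 reversed to −0.19 in the gate without the 7 genes, from only 6 and 9 AQP4 UMIs in the AAV retinas. In astrocyte-gated nuclei it reversed from 0.62 to −1.19 without AAV animal 7248 and −0.15 without vehicle animal 7250 (range over single retinas left out −1.19 to 3.12). The cause was not tested. In the gate without the 7 genes, SOX9 had too few counts to be tested. No paired analysis was possible because the replicate numbers follow accession order and the arms hold different animals. Depth limits KCNJ10, SOX9 and AQP4 most, since each had at most 0.285 UMIs per nucleus, and 2 animals per arm limit every call.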
